A study of Mus musculus with 2 samples.

Results

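Collecting duct spots were studied in a kidney section from a mouse given SH045. A spot is a small printed area of a Visium slide that captures polyadenylated RNA from the tissue above it, and it can hold several cells of different types or parts of them. Spots with at least 1000 UMIs (unique molecular identifiers, which count captured RNA molecules) were kept, and each was scored by the summed UMIs of Aqp2, Fxyd4 and Scnn1g divided by all of its UMIs. The 79 spots at or above the 90th percentile of this score were called collecting duct spots, out of 788 kept spots, 790 in that section's matrix and 1466 in the matrices of both sections. The other 709 spots are called remaining spots below. The 79 members were thus selected on measured values, and the levels of the 3 defining genes describe the selection and test nothing.

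The study obstructed 1 ureter in C57BL/6 mice and took the kidneys 7 days later. SH045 (larixyl N-methylcarbamate) is an inhibitor of TRPC6, a calcium-permeable cation channel, and the matched mice received vehicle. From each treatment 1 obstructed kidney was sectioned for spatial transcriptomics, as a fresh frozen section of 10 µm, and the labels call both kidneys obstructed. With 1 section per treatment, from 1 mouse each, there is no replicate, no p-value is given, and every interval below is a 95% interval of counting error alone.

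The collecting duct gathers the fluid of many nephrons and carries it through cortex and medulla to the renal pelvis. Its principal cells take up sodium through the epithelial sodium channel and take up water through aquaporins under the control of vasopressin, and its intercalated cells move protons and bicarbonate with the vacuolar proton pump. Obstruction of the ureter raises the pressure in this duct, and obstructed kidneys are known to lose Aqp2 protein and the ability to concentrate urine.

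The 79 collecting duct spots held 2038971 UMIs, with a median of 24506 per spot (range 6068 to 57423), and the remaining spots held 20348552, with a median of 27907 (range 2545 to 72340). Mitochondrially encoded genes took 4.39% of counts in collecting duct spots and 4.23% in the remaining spots. The section labelled Vehicle was shallower, with a median of 5260.5 UMIs in its 66 collecting duct spots, chosen by the same rule at its own 90th percentile, and of 5067 in its 593 remaining spots. In that section mitochondrially encoded genes took 3.32% of counts in collecting duct spots and 11.1% in the remaining spots. Its tissue flag marks 1210 spots, of which 570 are among the 676 of its matrix, and the injury gene Havcr1 had 0 UMIs in its collecting duct spots and 7 in its remaining spots. Lcn2 was near 0 there too, and whether this matrix and these positions are those of the section they are labelled as could not be settled from the files, so every value given for it is that of the section labelled Vehicle.

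Aqp2, the vasopressin-regulated water channel of the luminal membrane of principal cells, supplied 63.4% of the UMIs in the score. It lies at chr15:99579056-99584545 of GRCm38, and its level in single collecting duct spots ran from 308 to 4447 CPM (a gene's UMIs scaled to a total of 1000000) with a median of 790.5 CPM. Fxyd4, a regulator of the sodium pump, supplied 29.7%, with a range over spots from 110 to 1145 CPM and a median of 408 CPM. Scnn1g, the gamma subunit of the epithelial sodium channel, supplied 6.84% and had no UMI in 21 of the 79 spots. Aqp2 was the defining gene with most UMIs in 77 of the 79 spots, so membership turned mainly on Aqp2. The threshold lay at a score of 845 on the CPM scale. The lowest score inside was 849.5 and the fifth lowest 863, and the highest score outside was 844 and the fifth highest 823, so the edge of the set is continuous and no gap separates members from other spots.

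Aqp2 shares its stretch of chromosome 15 with Aqp5 and Aqp6, and the promoters of these neighbours are shown because Aqp2 and Aqp6 both mark collecting duct spots while Aqp5 was nearly absent. Aqp6, a water and anion channel of intercalated cells, had 309 UMIs in the 79 spots and 705 in the 709 others. Aqp5, best known from glands and lung, had 2 and 5. The windows are RefSeq's for GRCm38.p6, all on the plus strand, from 250 bases before to 50 bases after the annotated start: chr15:99578806-99579105 for Aqp2, chr15:99590778-99591077 for Aqp5 and chr15:99600950-99601249 for Aqp6. Capitals mark matches on either strand to AGATAA (read by GATA factors), TGACG (part of the cAMP response element TGACGTCA), TGACGTCA itself, GTAAACA (read by forkhead factors) or AACCGG (read by grainyhead-like factors).
Aqp2: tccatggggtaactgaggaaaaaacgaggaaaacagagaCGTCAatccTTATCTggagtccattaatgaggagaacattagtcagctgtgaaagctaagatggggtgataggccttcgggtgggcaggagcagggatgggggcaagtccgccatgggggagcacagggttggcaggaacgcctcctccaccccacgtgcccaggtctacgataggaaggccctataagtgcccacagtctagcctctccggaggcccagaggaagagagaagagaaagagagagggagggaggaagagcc
Aqp5: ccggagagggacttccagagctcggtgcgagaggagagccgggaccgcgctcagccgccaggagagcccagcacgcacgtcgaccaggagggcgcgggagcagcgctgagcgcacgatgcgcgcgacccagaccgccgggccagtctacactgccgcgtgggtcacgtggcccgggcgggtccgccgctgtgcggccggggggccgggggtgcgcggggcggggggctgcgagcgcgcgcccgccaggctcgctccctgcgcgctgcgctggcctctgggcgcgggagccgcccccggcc
Aqp6: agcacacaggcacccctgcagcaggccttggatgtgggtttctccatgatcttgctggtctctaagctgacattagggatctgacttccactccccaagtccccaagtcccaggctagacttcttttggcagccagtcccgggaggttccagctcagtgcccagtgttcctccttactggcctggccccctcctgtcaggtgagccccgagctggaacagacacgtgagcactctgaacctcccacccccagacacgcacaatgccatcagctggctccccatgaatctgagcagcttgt
In the Aqp2 window the run CGTCA, which is TGACG on the other strand, begins 211 bases before the start, and TTATCT, which is AGATAA on the other strand, begins 202 bases before it. The Aqp5 and Aqp6 windows held none of these letters, which says nothing about the factors themselves. Among all 32851 RefSeq windows of the same length, AGATAA was found in 11.2%, TGACG in 20.8%, TGACGTCA in 1.79%, GTAAACA in 3.65% and AACCGG in 6.83%. Of the 15 genes with the highest ratios described below, 12 had a window, of which 3 held TGACG, 3 held GTAAACA, 2 held AACCGG and 0 held AGATAA. A gene was counted where any of its windows held the letters, whereas the percentages are shares of single windows, so the 2 measures are unlike.

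The collecting duct spots were not scattered evenly over the section. They formed 25 clumps of touching spots, the largest of 24 spots and the second of 19, with 13 spots alone, and 66 of the 79 (83.5%) touched another collecting duct spot. Of the neighbours of collecting duct spots 31.5% were themselves collecting duct spots, against 7.80% of the neighbours of remaining spots. Most lay in a belt across the section. When it was split into 4 position blocks of 217, 201, 194 and 176 spots, the upper pair held 31 and 36 collecting duct spots and the lower pair 8 and 4. They also lay deeper, at a median of 6 grid steps from the tissue edge against 4 for the remaining spots, and they made up 7.32% of the 123 spots at the edge and 36% of the 25 spots at 10 steps. Spots at 3 steps held the lowest share, 3.85% of 104.

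**Figure D1:**
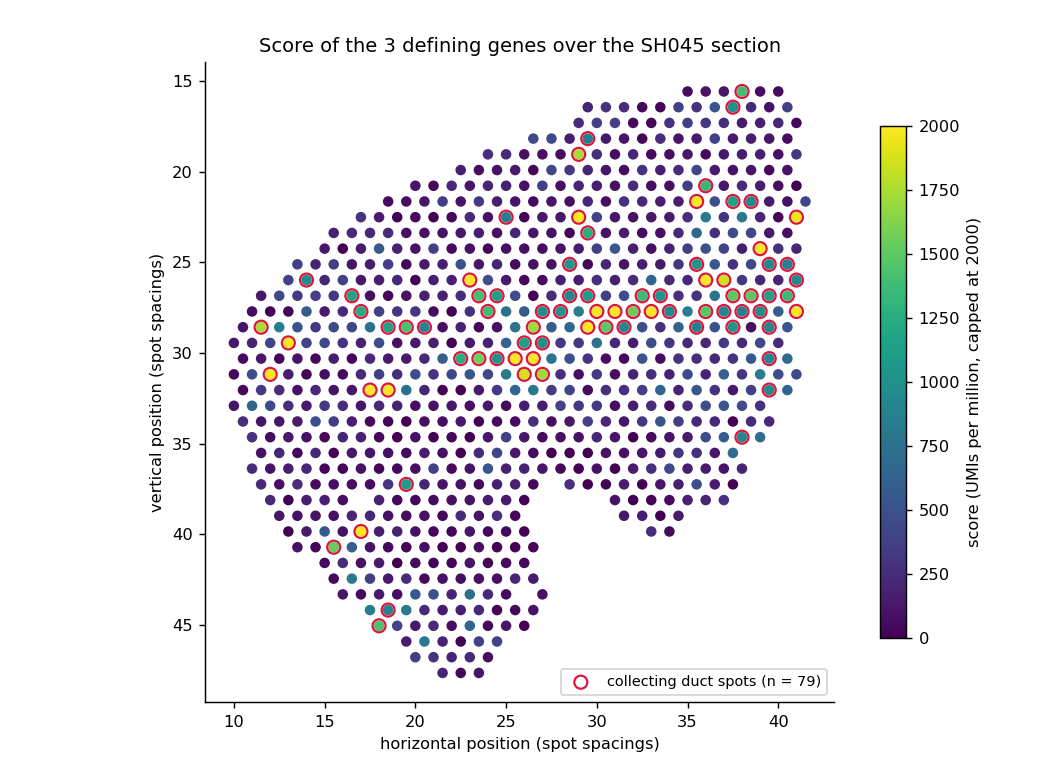
Position of the 788 kept spots of the SH045 section, in spot spacings on both axes, coloured by score (UMIs of Aqp2, Fxyd4 and Scnn1g on the CPM scale, capped for display). The 79 collecting duct spots, circled in red, form a belt with clumps of 24 and 19 spots and a few scattered spots elsewhere.

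Over all genes, collecting duct spots resembled the rest of the section more than they differed from it. A gene was measured where either group reached 10 CPM and was called higher or lower where log2(CPM + 1) differed by at least 1.5-fold, a scale that understates differences of low genes. Of 10518 genes so measured, 397 (3.77%) were called higher and 389 (3.7%) lower in collecting duct spots, with a median log2 ratio of 0.01. Against these shares, 19 of the 21 measured principal cell genes were higher and 0 lower, with a median log2 ratio of 1.56. Their summed level was 3005 CPM in collecting duct spots and 1245 CPM in the remaining spots. Aqp3, Aqp4, Elf5 and Kcne1 of this list reached 10 CPM only in collecting duct spots, and the filter favours higher calls of such genes. Of 136 list and named genes called, 82 were higher, of which 72 stayed so without the largest clump of 24 spots and 68 against the 204 touching spots alone, and 54 were lower, of which 45 and 40 stayed so. Genes named below that lost their call in either way are given as such. A higher level of a cell type's genes in a spot can mean more such cells or more RNA per cell, and these cannot be told apart here.

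Genes of water transport were among those with the highest ratios. Aqp3, which lets water leave principal cells across their basal side, was read at 67.7 CPM (56.9 to 79.96) in collecting duct spots and 9.34 CPM (8.06 to 10.8) in the remaining spots, 7.25-fold higher (5.78 to 9.07). It was detected in 51 of the 79 spots and in 154 of the 709, from 0 to 239.6 CPM with a median of 39.7 CPM in collecting duct spots, so single spots of both groups overlapped. After thinning every spot to 2500 UMIs the shares with a UMI were 10.1% and 3.24%. Avpr2, the vasopressin receptor that drives Aqp2 to the membrane, was at 106 CPM (92.3 to 121) against 19.4 CPM (17.5 to 21.4), 5.46-fold higher (4.60 to 6.46), with UMIs in 66 of the 79 spots. Aqp4, the other basal water channel, was at 37.8 against 7.86 CPM, 4.80-fold higher (3.61 to 6.34). The rest of the vasopressin and cAMP pathway did not share this difference: of 17 measured genes of that list 3 were higher (Avpr2, Aqp3 and Akap7, an anchor of protein kinase A) and 1 was lower (Cftr, a cAMP-gated chloride channel, at 7.36 against 14.9 CPM, but within 1.5-fold of the 11.3 CPM in touching spots). Gnas, the stimulatory G protein, was at 966 against 945 CPM, and the adenylyl cyclase Adcy6 at 82.4 against 57.8 CPM, both within 1.5-fold. Akap7 lost its call without the spot that held most of its UMIs. Of 6 measured aquaporins 3 were higher (Aqp3, Aqp4 and Aqp6) and 1 was lower, Aqp11 of the proximal tubule, at 6.87 against 11.9 CPM.

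Sodium and potassium transport genes were next. Hsd11b2, the enzyme that inactivates glucocorticoids so that aldosterone alone reaches the mineralocorticoid receptor, was read in all 79 collecting duct spots, from 46.0 to 1544 CPM with a median of 437 CPM. In the remaining spots its median was 74.6 CPM and its highest value 1047 CPM, so a few of those spots reached the upper range of the members. The summed levels were 529 CPM (498 to 561) and 111 CPM (107 to 116), 4.75-fold higher (4.41 to 5.10), and the 3 position blocks with at least 5 collecting duct spots gave 457 to 816 CPM in members and 98.2 to 131 CPM in the rest, without overlap. Scnn1b, the beta subunit of the sodium channel, was at 176 against 62.3 CPM, 2.82-fold higher (2.50 to 3.17), and Scnn1a, the alpha subunit, at 90.7 against 49.9 CPM, 1.82-fold higher (1.55 to 2.13). Scnn1a had the smaller fold of these subunits, and the intervals of both folds do not overlap. Kcnj1, the potassium secretory channel shared with the thick ascending limb, was at 272 against 76.7 CPM, 3.55-fold higher (3.21 to 3.91). Of the 15 measured genes of the sodium channel and mineralocorticoid list, those 4 were higher and 0 lower. The others were within 1.5-fold, among them the aldosterone-induced kinase Sgk1 at 108 against 106 CPM, the ubiquitin ligase Nedd4l at 95.1 against 75.8 CPM and the channel-cleaving protease Prss8 at 182 against 171 CPM. Nr3c2, the receptor itself, was too low to measure, at 8.83 against 5.06 CPM.

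Receptors and secreted signals of duct cells formed a further group. Mcoln3, a cation channel of endosomes and lysosomes, had the highest ratio of the 15 genes chosen for their ratio, at 86.8 CPM (74.5 to 101) against 11.4 CPM (9.98 to 13.0), 7.61-fold higher (6.23 to 9.30), with UMIs in 57 of the 79 collecting duct spots and 173 of the 709 others. Ptger1, a prostaglandin E2 receptor that restrains sodium and water uptake, was at 53.0 against 11.2 CPM, 4.75-fold higher (3.74 to 6.00). Ptger3, the prostaglandin E2 receptor that lowers cAMP, was at 45.6 against 15.3 CPM, and the synthesis enzymes Ptgs1 and Ptges at 79.9 against 41.6 CPM and 50.5 against 32.6 CPM. These 4 were the higher genes among 13 measured in the prostaglandin and endothelin list, with 0 lower, and Ptges lost its call without the spot that held most of its UMIs. Ptgs2, the inducible cyclooxygenase, was not measured, at 4.41 against 4.82 CPM. Apela, a peptide ligand of the apelin receptor, was at 153 CPM (137 to 171) against 38.6 CPM (36.0 to 41.4), 3.96-fold higher, and was found in 76 of the 79 spots.

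Signals of the Wnt family that embryonic ducts send to the tissue around them were also higher. Wnt9b was at 22.6 CPM (16.5 to 30.1) against 4.96 CPM (4.04 to 6.03), and at 4.11 CPM in the 204 remaining spots that touch a collecting duct spot. Wnt7b was at 81.9 against 49.1 CPM. Of 10 measured genes of the Wnt and hedgehog list 3 were higher, the third being the Wnt target Axin2 at 10.3 against 6.24 CPM, and Ihh was lower at 26.0 against 44.1 CPM. Without the spot holding most of its UMIs Axin2 was within 1.5-fold. Notch genes, which set the balance of principal and intercalated cells, gave 0 higher and 0 lower of 10 measured, with Notch1 at 46.6 against 37.2 CPM and its target Hes1 at 96.6 against 78.6 CPM.

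Many transcription factors of the duct were higher too. Of 20 measured genes on that list 11 were higher and 1 lower, with a median log2 ratio of 0.60. Elf5, a factor of principal cells, had 48 UMIs in collecting duct spots and 52 in all remaining spots, that is 23.5 CPM (17.4 to 31.2) and 2.56 CPM (1.91 to 3.35), 9.21-fold higher (6.09 to 13.9). It was detected in 33 of the 79 spots (41.8%) and in 6.35% of the others. Gata2 was at 57.4 against 18.4 CPM and Gata3, which embryonic ducts need to form, at 41.7 against 18.3 CPM. Tfap2b was at 43.2 against 23.8 CPM and Pax2 at 17.7 against 8.40 CPM. Tfcp2l1, which sets intercalated cell fate and is also read in other distal segments, had a fold of 1.47 (1.34 to 1.61) and was not called. Emx1 was the lower gene, at 8.83 against 15.04 CPM, and Elf3, Emx2 and Sim1 lost their call without the spot that held most of their UMIs. Emx1 and Sim1 were also within 1.5-fold without the largest clump, and Emx1, Emx2 and Sim1 against touching spots.

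Genes of both kinds of intercalated cell were higher in these spots, although no intercalated gene entered the score. All 6 measured genes of the type A list, whose cells secrete acid, were higher, and their summed level was 409.5 against 172 CPM. Aqp6 led them, at 152 CPM (135 to 169) against 34.6 CPM (32.1 to 37.3), 4.37-fold higher (3.81 to 5.01), with a range over members from 0 to 734 CPM and a median of 106 CPM. Kit was at 32.4 against 11.6 CPM and the pump subunits Atp6v1c2 and Atp6v0d2 at 33.4 against 11.01 CPM and 55.4 against 29.4 CPM. The defining anion exchanger of type A cells, Slc4a1, did not reach 10 CPM, at 9.32 CPM (5.61 to 14.6) against 3.15 CPM (2.42 to 4.02). Of the 5 type B genes, whose cells secrete bicarbonate, 4 were higher, with pendrin (Slc26a4) at 35.3 against 14.3 CPM. Pendrin was patchy: it had UMIs in 19 of the 79 spots and 10 of its 72 UMIs came from 1 spot. Of the 79 spots, 34 had no UMI of the whole type B list. In the largest clump pendrin was at 2.45 CPM, Spink8 at 4.89 CPM and Hmx2 at 0 CPM. Each was below its level in the remaining spots (14.3, 22.95 and 3.29 CPM), whereas Insrr was at 4.89 CPM in the clump against 3.19 CPM. Without the spot holding most of its UMIs, pendrin stayed higher, whereas Insrr, Hmx2 and Spink8 of the same list and Adgrf5 and Oxgr1 of the type A list fell back within 1.5-fold. Insrr (10.3 against 3.19 CPM), Hmx2 (11.3 against 3.29 CPM) and Oxgr1 (10.3 against 6.44 CPM) reached 10 CPM only in collecting duct spots. The filter favours higher calls of such genes, so the counts of both lists were partly built in. Among genes shared by both kinds, 5 of 8 were higher (Atp6v0d2 is on this list too), including the master regulator Foxi1 at 58.4 against 23.2 CPM and the pump subunit Atp6v1g3 at 199.6 against 90.5 CPM. Rhcg, an ammonia channel found in both principal and intercalated cells, was at 122 against 40.6 CPM.

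**Figure D2:**
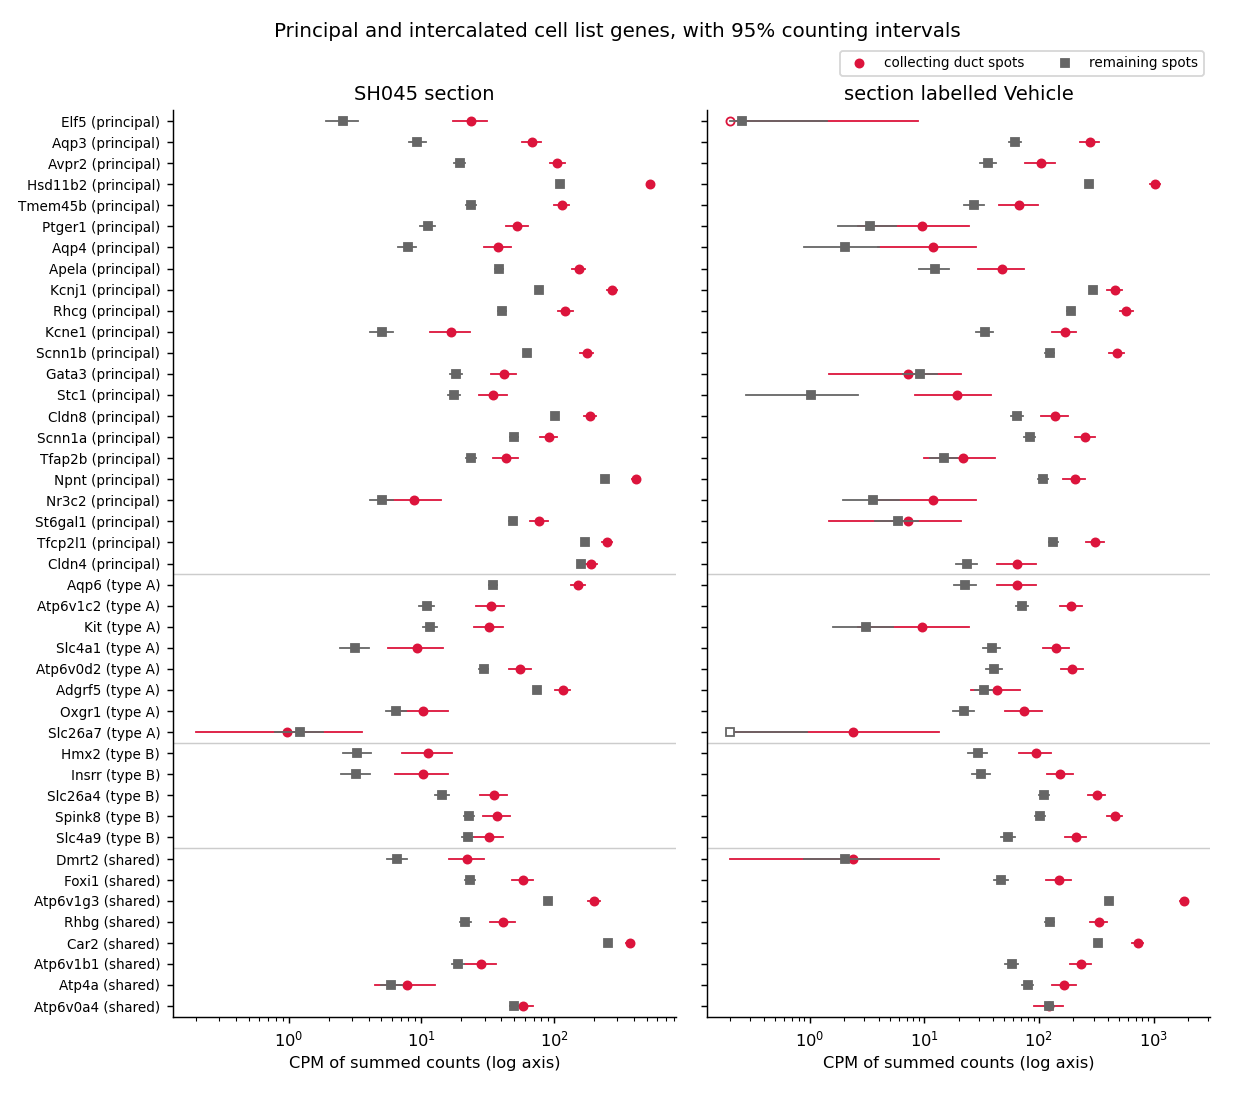
CPM of summed counts (log axis) in collecting duct spots (red circles) and remaining spots (grey squares) for each gene of the principal, type A, type B and shared intercalated lists other than the defining genes, in the SH045 section (left) and the section labelled Vehicle (right). Bars are 95% Poisson intervals and open markers at the left edge stand for values of 0. In the SH045 section Elf5, Aqp3 and Avpr2 lead the principal cell list and Slc26a7 sits near 1 CPM in both groups of spots.

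Among the other genes of highest ratio, Tmem45b was at 114 against 23.6 CPM, the mucin Muc20 at 84.4 against 19.8 CPM, the placenta-expressed surface protein Plet1 at 203 against 64.8 CPM and the carbonic anhydrase Car15 at 275 CPM, 2.99-fold higher (2.71 to 3.28). Tmem150c was at 53.5 against 16.3 CPM. Junction genes followed in part: 6 of 17 measured genes of the claudin and junction list were higher and 1 lower, and 3 of the higher (Cldn10, Cldn16 and Cldn19) are claudins of the thick ascending limb. The adhesion protein Cdh1 was at 257 CPM against 142 CPM, Epcam at 324 against 209.7 CPM and Cldn8, a claudin of the distal nephron, at 187 against 101 CPM, whereas Cldn1 was lower at 51.5 against 81.3 CPM. Without the largest clump Cldn10 was at 185 CPM against 157 CPM and Epcam at 312 CPM, so both lost their call, as they did with Cldn16 against touching spots. Of 14 measured glycolysis genes, the glucose transporter Slc2a1 (227 against 131 CPM) and the hexokinase Hk1 (166 against 95.9 CPM) were higher and 0 lower. Of 19 oxidative phosphorylation genes 0 were called either way.

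The collecting duct spots also carried RNA of the tubules that run beside the duct. Of 8 measured thick ascending limb genes 6 were higher, of which Cldn16 lost its call without the spot that held most of its UMIs, and their summed level was 7189 CPM against 3847 CPM. Umod, the secreted protein of that limb, was at 5895 CPM in collecting duct spots and 4681 CPM in the touching spots, against 3121 CPM in all remaining spots, so against touching spots it was not called. Slc12a1, the sodium potassium chloride cotransporter of the limb, was at 486 CPM, 349 CPM in touching spots, within 1.5-fold, and 186 CPM in all remaining spots. Without the largest clump, where Slc12a1 was at 1061 CPM, it was at 342 CPM. The sum of the thick limb list declined step by step with grid distance from the nearest collecting duct spot, from 7189 through 5716, 3621 and 2868 to 2539 CPM at 4 steps or more. The principal cell sum behaved otherwise: it was 3005 CPM in members, 1266 CPM at 1 step and 1223 CPM at 4 steps or more. It thus dropped within 1 step, and the score that chose the members is made of genes of the same cells. The type A sum, which the score did not use, dropped the same way, from 409.5 to 167 CPM at 1 step. Among the 79 spots of highest thick limb sum, 21 were collecting duct spots, against 26 among the 79 of highest type A sum. For the type B and shared intercalated sums the numbers were 17 and 19, below that of the thick limb. Collecting duct spots made up 10.0% of all kept spots.

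Genes of the proximal tubule were sparser. Of 11 measured genes of its convoluted segments 9 were lower and 0 higher, with a summed level of 959.8 against 1756 CPM and of 1879.6 CPM in touching spots. Slc34a1, the phosphate transporter, was at 325 CPM (300.4 to 350.4) against 611 CPM (600.4 to 622), and Slc5a2, the glucose transporter SGLT2, at 32.4 against 82.1 CPM. Of 8 genes of the straight segment 1 was lower. Podocyte genes gave 4 lower and 0 higher of 6. Alpl, alkaline phosphatase of the proximal brush border, had the lowest ratio of the 15 genes chosen for it, at 30.4 CPM against 116 CPM, which is 3.82-fold (2.97 to 4.995) lower. Renin (Ren1), made at the glomerular pole, was 3.70-fold (3.04 to 4.55) lower, at 50.5 against 187 CPM. Slc12a3, the sodium chloride cotransporter of the distal convoluted tubule, was 2.92-fold (2.39 to 3.61) lower, at 47.6 against 139 CPM.

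The connecting tubule, which joins the distal convoluted tubule to the duct, was split: of 7 measured genes, the calcium channel Trpv6 (30.9 against 19.5 CPM) and calbindin (Calb1, 54.4 against 26.8 CPM) were higher, and the sodium calcium exchanger Slc8a1 (35.8 against 56.5 CPM) and the calcium carrier S100g (66.2 against 166 CPM) were lower. Trpv6 lost its call without the spot that held most of its UMIs, and Slc8a1 without the largest clump and against touching spots. The S100g value depended on Aqp2 in the score. With the score of Fxyd4 and Scnn1g alone its log2 ratio was 0.17 in place of -1.31. Klk1, kallikrein of the connecting tubule, was at 144 against 165 CPM and was not called.

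**Figure D3:**
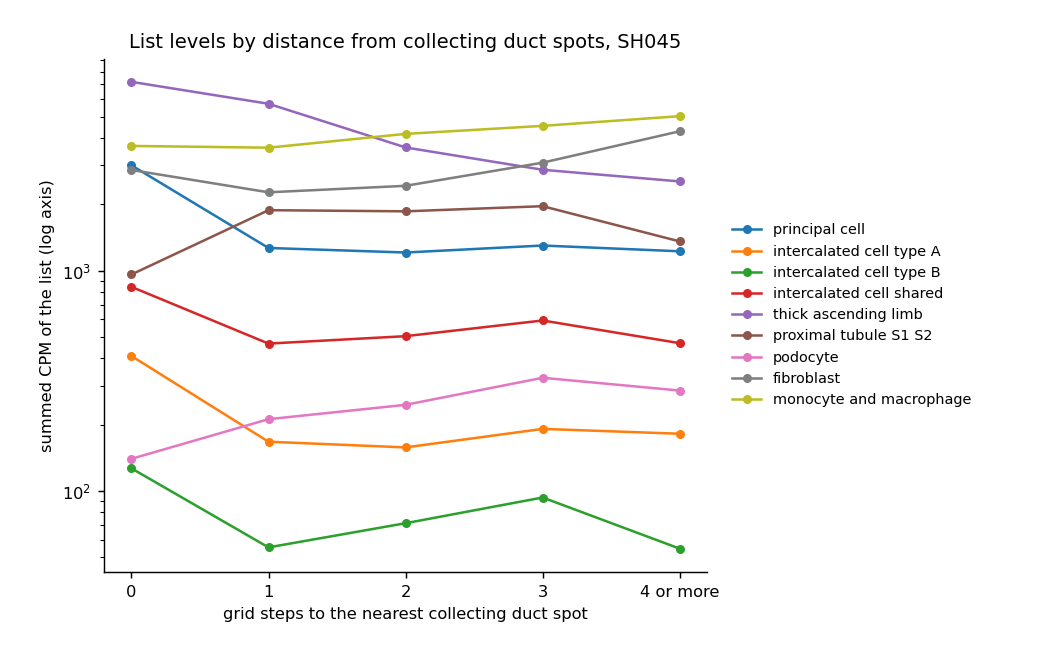
Summed CPM of gene lists (log axis) by grid steps to the nearest collecting duct spot in the SH045 section, where step 0 is the 79 collecting duct spots and the other points hold 204, 182, 121 and 202 spots. The principal and type A lines drop between steps 0 and 1, the thick ascending limb line declines over all steps, and the convoluted proximal line is lowest at step 0.

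Injury genes of the tubule did not move as a group. Of 24 measured genes of that list 3 were higher and 4 lower, with a median log2 ratio of -0.01. Lcn2, the iron-siderophore binding protein that distal tubules and ducts release in injury, was read in every collecting duct spot, from 414 to 7917 CPM with a median of 1631 CPM, against a median of 868 CPM and a highest value of 7338 CPM in the remaining spots. Both ranges overlapped widely. Its summed level was 1906 CPM (1847 to 1967) against 1165 CPM (1150.3 to 1180.0), 1.64-fold higher (1.58 to 1.69). The 3 position blocks with at least 5 collecting duct spots gave 1216 to 2338 CPM in members and 688 to 913 CPM in the rest. Block 4, with 4 collecting duct spots, is not in these ranges. The pooled 1165 CPM lies above the range of the rest, so the remaining spots of block 4 were higher in Lcn2 than those of the other blocks. Remaining spots 4 or more steps from a collecting duct spot were at 1549 CPM, against 1096 CPM in touching spots. Krt7 and Krt18, keratins of simple epithelium, were at 523 against 309 CPM and 314 against 204 CPM, and Krt18 lost its call without the spot that held most of its UMIs. Havcr1, the injury marker of the proximal tubule known as KIM-1, was lower, at 546 CPM (515 to 579) against 1037 CPM (1023 to 1051), and Vcam1, an adhesion molecule of proximal cells that fail to recover, was at 167 against 289.7 CPM. Krt20, a keratin of stressed tubules, and Sox9, a factor of tubule repair, were the other lower genes, at 25.01 against 42.9 CPM and 23.1 against 41.4 CPM. Osteopontin (Spp1) and clusterin (Clu), which were abundant throughout, were within 1.5-fold, at 16328 against 17151 CPM and 8196 against 6205 CPM.

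Levels of several genes changed along the score below the threshold too, though not all of them steadily. When the kept spots were divided into deciles by score, Havcr1 was at 1172 CPM in the lowest decile, 1063 CPM in the sixth, 588 CPM in the ninth and 552 CPM in the highest. Lcn2 was lowest in the third decile at 837 CPM and reached 1960.0 and 1890.0 CPM in the ninth and the highest. The decile just under the threshold was thus slightly above the highest decile in Lcn2. Aqp6 went from 10.2 CPM in the lowest decile to 106 CPM in the ninth and 153 CPM in the highest, and Hsd11b2 from 63.1 to 277 and 533 CPM. Aqp3 made the steepest last step, from 23.6 to 68.02 CPM. Other genes were uneven. Atp6v1g3 was at 223 CPM in the eighth decile, 155 CPM in the ninth and 201 CPM in the highest, and Slc12a1 at 176, 273 and 489 CPM in the same deciles. Slc34a1 peaked at 1126 CPM in the third decile and was at 225 CPM in the ninth and 327 CPM in the highest.

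**Figure D4:**
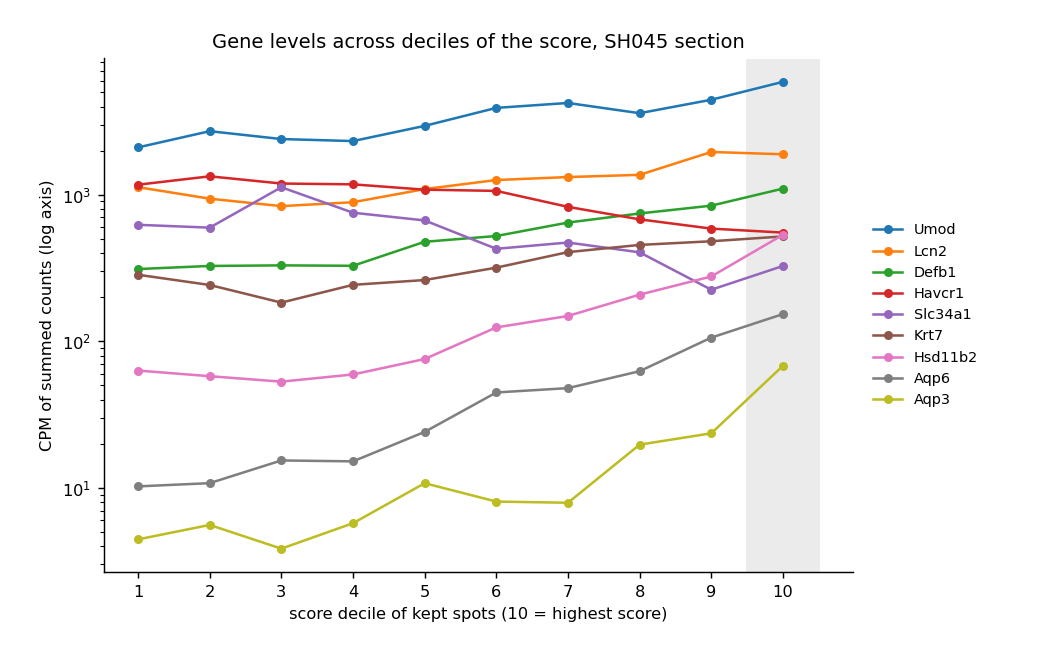
CPM of summed counts (log axis) of 9 genes in deciles of the 788 kept spots of the SH045 section ordered by score, with the highest decile shaded. Havcr1 declines and Lcn2, Defb1 and Krt7 climb over the upper deciles, while Aqp3 and Hsd11b2 make their largest step into the highest decile.

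Genes of antimicrobial defence were part of the duct pattern. Of 12 measured genes of the iron and antimicrobial list 4 were higher and 0 lower: Lcn2, Defb1, Wfdc15b and Muc1. Defb1, an epithelial beta-defensin, was in every collecting duct spot, from 426 to 3010.4 CPM with a median of 1077 CPM against 438 CPM in the remaining spots. Its summed level was 1096 CPM (1051 to 1142) against 486 CPM (476 to 496), 2.25-fold higher (2.15 to 2.36). Position blocks with at least 5 collecting duct spots gave 958 to 1224 CPM against 418 to 538 CPM. Wfdc15b, of the whey acidic protein family, was at 159 against 65.8 CPM (within 1.5-fold of the 114 CPM in touching spots) and the mucin Muc1 at 164 against 81.3 CPM. Fth1, the heavy chain of ferritin, was within 1.5-fold at 3745 against 4903 CPM. Defb1 and Muc1 are also made by the thick ascending limb, whose genes were higher in the same spots, and the part of that limb in these values was not tested.

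Some inflammatory genes were lower in collecting duct spots. The macrophage, matrix and cell cycle counts below were near the shares over all measured genes (3.77% higher and 3.7% lower). They therefore say little about those genes. Of 12 macrophage genes 0 were called, and their summed level was 3679 against 4281 CPM. Of 27 structural matrix genes 0 were higher and 1 lower, with Col1a1 at 477 against 637 CPM and Col3a1 at 1116 against 1002 CPM. Of 17 chemokine and cytokine genes 5 were lower, including Ccl2 at 38.3 against 61.3 CPM, Cxcl1 at 44.1 against 74.3 CPM and Ccl5 at 18.6 against 37.9 CPM. Cxcl12, which draws cells bearing the receptor Cxcr4, was the higher one, at 154 against 81.4 CPM, but the 3 blocks gave 37.9 to 204 CPM in members, and in 1 of them the members were the lower group. Cxcl12 was at 345 CPM in the largest clump and at 106 CPM in the other members, which ends its call, and Ccl2 lost its call without the clump and, like Cxcl1, against touching spots. Of 13 complement and MHC class II genes 3 were lower, with C3 at 596 CPM against 915 CPM and Cfb at 124 against 207 CPM. C3 was at 276 CPM in the largest clump and 676 CPM in the other members, and it was within 1.5-fold without the clump and against touching spots (829 CPM). Of 5 measured B and plasma cell genes 3 were lower and the antibody constant region Ighg2c was higher, at 188 against 23.9 CPM, but 357 of its 384 UMIs came from 1 spot and without it the level was 13.4 CPM. Of 12 measured cell cycle genes 0 were called, with Mki67 at 25.5 against 21.5 CPM. Haemoglobin genes, which report red blood cells, were higher for 3 of 3 measured genes, with Hbb-bs at 53.9 against 23.8 CPM, and Hba-a1 and Hba-a2 lost their call without the spot that held most of their UMIs, without the largest clump and against touching spots.

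Markers of other cell types gave few calls, as did all measured genes (3.77% higher and 3.7% lower), so these counts say little about those cells. Of 11 urothelium and stratified epithelium genes 1 was measured and 0 were called, with a summed level of 112 against 167 CPM, and 3 of the 11 had no UMI in collecting duct spots. T and NK cell genes were all under 10 CPM, with a sum of 28.0 against 30.6 CPM. Of 9 endothelial genes 0 were called, with a sum of 770.0 against 685 CPM, and of 9 fibroblast genes 1 was higher and 1 lower, with a sum of 2861 against 2959 CPM.

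Genes listed for water balance gave few calls. Of 8 measured genes of the osmolyte and tonicity list 1 was higher and 1 lower. Slc5a3, which imports inositol under high salt, was at 225 against 110.2 CPM, with 467 CPM in the largest clump and 164 CPM in the other members, so it lost its call without the clump, and also against touching spots (165 CPM). The lower gene, Gpx3, was at 5719.6 against 10387 CPM. It is a secreted peroxidase made chiefly by the proximal tubule, so its level does not report osmolytes. Of 5 measured genes of the inner medullary duct and urea list, Aqp4 was higher and the urea transporter Slc14a1 lower, at 4.90 against 10.6 CPM. Slc14a1 had 10 UMIs in collecting duct spots. It was at 19.6 CPM in the largest clump, above the remaining spots, and at 1.23 CPM in the other members.

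TRPC6, the target of SH045, was hardly read: Trpc6 had 2 UMIs in collecting duct spots, 0.981 CPM (0.119 to 3.54), and 36 in the remaining spots, 1.77 CPM (1.24 to 2.45). Trpc1 was the measured member, at 12.8 CPM (8.33 to 18.7) against 17.6 CPM (15.8 to 19.5), and Trpc4, Trpc5 and Trpc7 had 0 UMIs in collecting duct spots, which allows up to 1.47 CPM (3 counts). At this depth a difference in Trpc6 between the groups of spots was not detectable.

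The collecting duct spots differed among themselves with depth in the tissue, which the score does not use. The 37 spots more than 6 grid steps from the edge were called deep and the other 42 outer. Depth, side of the section and clump go together here: block 1 held 22 deep and 9 outer spots, block 2 held 10 and 26, and all 24 spots of the largest clump were deep, so they cannot be fully told apart. Deep spots were shallower in sequencing, with a median of 20463 UMIs against 29088.5. Of 10711 measured genes 910 (8.5%) were higher and 963 (8.99%) lower in deep spots, with a median log2 ratio of -0.02. Principal cell genes were close, with 1 of 21 higher and 2 lower and sums of 3186 and 2899.8 CPM. Aqp3 was at 66.5 CPM in deep and 68.4 CPM in outer spots and Hsd11b2 at 528 and 529 CPM. The higher gene was Aqp4, at 57.2 against 26.4 CPM, and the lower ones were Kcne1, at 2.66 against 24.9 CPM, and Cldn4, at 132 against 224 CPM. Without the largest clump Aqp4 was at 32.1 CPM in deep spots and lost its call, while Kcne1 and Cldn4 stayed lower, as they did within blocks 1 and 2.

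All 5 measured type B genes were lower in deep spots, with a sum of 47.9 against 172 CPM, although the interval of Insrr (0.153 to 1.53) spans 1. Pendrin, Insrr and Hmx2 reached 10 CPM only in outer spots. The filter favours lower calls of such genes, so this count was partly built in. Pendrin was at 6.65 against 52.05 CPM, a deep over outer ratio of 0.128 (0.0402 to 0.313), and the bicarbonate transporter Slc4a9 at 13.3 against 43.5 CPM. Type A genes gave 0 higher and 1 lower of 7, with Aqp6 at 179.6 against 135 CPM. Atp6v1g3, shared by both kinds, was lower, at 130.4 against 240.0 CPM. Wnt9b was also lower in deep spots, at 9.31 against 30.3 CPM, as were Lcn2, at 1366 against 2222 CPM, and C3, at 359 against 734 CPM. Within blocks 1 and 2 alike, Slc26a4, Spink8, Atp6v1g3 and Wnt9b were lower in deep spots. Wnt9b, Slc26a4 and Spink8 had 46, 72 and 76 UMIs in all collecting duct spots, so their block levels rest on few UMIs. Wnt9b in block 1 was at 9.75 against 17.1 CPM, and no interval was computed within blocks. Slc4a9 and C3 were lower in block 1 and within 1.5-fold in block 2, and Lcn2 the reverse. Insrr and Hmx2 were lower in block 1. In block 2 both were under 10 CPM, at 4.71 in deep against 4.16 CPM in outer spots for Insrr and 0 against 6.93 CPM for Hmx2. Without the largest clump Insrr and Atp6v1g3 lost their call, and the others of these genes stayed lower.

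Deep spots carried more RNA of the straight proximal segment and of the loop. Of 8 straight segment genes 7 were higher and 0 lower, with the oxysterol hydroxylase Cyp7b1 at 133 against 41.2 CPM and the amino acid transporter Slc7a13 at 93.1 against 43.5 CPM. Of 6 thin limb genes 4 were higher, with the water channel Aqp1, of proximal tubule and descending limb, at 580.0 against 242 CPM. Slc12a1 was at 719.7 against 349.6 CPM, and Cxcl12 at 239 against 103 CPM. Jchain, the joining chain of secreted antibodies, was at 206 against 43.5 CPM, and of 5 B and plasma cell genes 4 were higher. Without the deep spot that held most Ighg2c, the deep level of Jchain was 153 CPM, that of Igkc 872 CPM against 308 CPM in outer spots, and that of Ighg2c 20.6 CPM against 9.32 CPM. Cbs, an enzyme of sulphur amino acid metabolism, was at 67.8 against 17.1 CPM and the peroxisomal oxidase Acox2 at 57.2 against 17.9 CPM. On the other side, the matrix protein Sparcl1 was at 58.5 against 134 CPM and Ptgds, prostaglandin D synthase, at 39.9 against 90.1 CPM. Without the largest clump Cxcl12 (114 CPM in deep spots) and Slc12a1 (312 CPM) were within 1.5-fold of outer spots, and within block 2 Slc7a13 was lower in deep spots, at 23.6 against 62.4 CPM. The markers of neighbouring segments thus moved with depth, and their part in each difference between deep and outer spots was not tested.

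**Figure D5:**
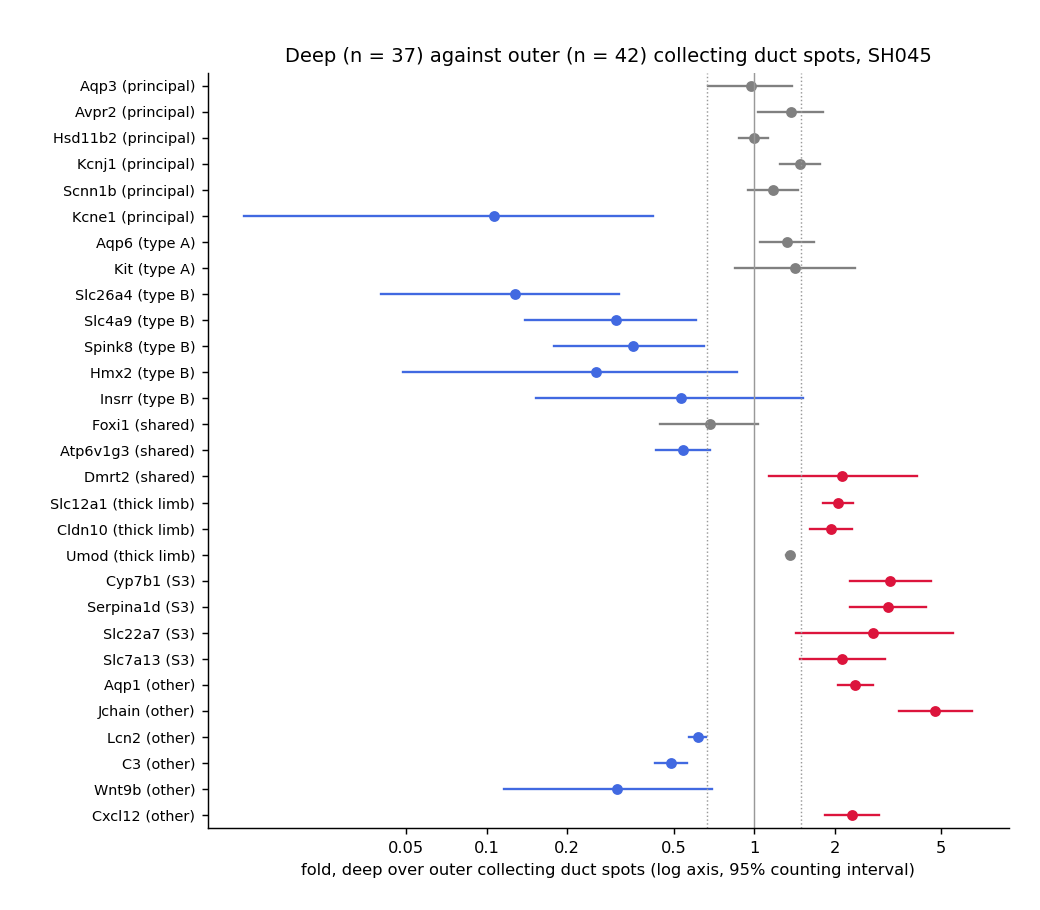
Fold of deep over outer collecting duct spots of the SH045 section (log axis) for genes of the duct, of neighbouring segments and of immune cells, with 95% conditional binomial intervals. Red points are called higher, blue points lower and grey points lie within 1.5-fold (dotted lines). All 5 type B genes lie left of 1 and the straight segment (S3) genes right of it.

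In the section labelled Vehicle the same rule found spots in which most principal cell genes were higher, though not Elf5. Its threshold lay at 1150 on the same scale, and of 8954 measured genes 2331 (26%) were higher and 941 (10.5%) lower in its 66 collecting duct spots, with a median log2 ratio of 0.22. Relative to that median 1417 were higher and 1534 lower. Of 18 measured principal cell genes 17 were higher (16 relative to the median) and 0 lower. Avpr2 was at 103 CPM in its collecting duct spots and 36.1 CPM in its remaining spots, 2.86-fold higher (1.98 to 4.05), beside 5.46 in the SH045 section. For Aqp3 the values were 279 and 62.0 CPM, 4.498-fold higher (3.57 to 5.64) beside 7.25, and for Hsd11b2 1034 and 272 CPM, 3.80-fold higher (3.39 to 4.25) beside 4.75. Intercalated genes stood out there as well, with 5 of 6 type A, 5 of 5 type B and 7 of 8 shared genes higher. Atp6v1g3 was at 1839.9 against 408 CPM, 4.51-fold higher (4.13 to 4.92) beside 2.21 (1.98 to 2.46), and Slc26a4 at 319.9 against 111 CPM.

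Several genes of the SH045 collecting duct spots were near 0 throughout the section labelled Vehicle. Lcn2 had 0 UMIs in its collecting duct spots and 9 in its remaining spots, Wnt7b had 0 and 1, and Elf5 0 and 1. Defb1 was present, at 2593 against 1426 CPM, 1.82-fold higher (1.70 to 1.94). Thick limb genes gave 2 of 8 higher there, with Umod at 1691 against 1449 CPM. Connecting tubule genes gave 5 of 6 higher (3 relative to the median) and 0 lower, with Klk1 at 23839.6 against 9812 CPM and S100g at 16559 against 8585 CPM. Among its spots with under 10% mitochondrially encoded counts, 61 collecting duct and 260 remaining spots, 16 of 18 principal cell genes were higher and 0 lower. Mouse, section position, depth and treatment cannot be told apart between the sections.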

How the data were processed

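UMI counts of 32285 genes per spot were deposited by the authors for each section, made with Space Ranger 2.0.1 per the file headers and the genome build mm10 per the submitters' processing notes. For the annotation and alignment settings the sources used here give nothing. The authors' tissue images and scale factors were not used, and the single-cell libraries of 9 kidneys were not analysed here. The 2 matrices share 335 spot barcodes, which are slide positions and not cells. No column of per-sample values was left out.

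Spots with at least 1000 UMIs were kept and members chosen as described. Each group's spots were pooled by adding their counts, given as CPM, with exact Poisson 95% intervals, and folds with exact conditional binomial 95% intervals. These cover counting error only, as spots of 1 section are not replicates. A gene at or above 10 CPM in either group was called at 1.5-fold on log2(CPM + 1). For shares of spots with a UMI, every spot was also thinned to 2500 UMIs. Spot neighbours came from the deposited slide positions. Gene positions and promoter windows came from RefSeq tables of GRCm38.p6.

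The members and lists were chosen with earlier results of these data known. Genes were named by a written rule: all principal, intercalated and TRPC list genes, the 3 most abundant of each other list, the 15 highest and 15 lowest ratios and the 10 highest and 10 lowest between deep and outer spots, among genes of at least 50 CPM with the same direction in every position block of at least 5 spots of each group and, for the first, against touching spots. Haemoglobin, immunoglobulin, mitochondrial and ribosomal genes and predicted names were left out of the ranked genes. Other genes were named after their values were seen, among them called members of short lists such as Wnt9b, Axin2, Cftr, Emx1 and Cxcl12. Leaving out the spot that held most of a gene's UMIs, which always lowers its level in members, was added after seeing the data, as were the calls without each position block or the largest clump, against touching spots for single genes and, for deep spots, within blocks. The procedure was tested on simulated data. Python 3.11.15, numpy 2.4.6, scipy 1.17.1, pandas 2.3.3 and matplotlib 3.10.9 were used. Values of some list genes are not reported here.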

Additional observations from a re-analysis of the deposited data

Results flagged for a closer look

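Of the named genes, 3 were called in opposite directions in collecting duct spots of the sections, and no difference between sections was tested. Hbb-bs, beta-globin, had a log2 ratio of 1.15 in the SH045 section and -1.94 in the section labelled Vehicle. In the latter the whole red blood cell list summed to 4.81 CPM in collecting duct spots and 26.9 CPM in remaining spots. Those collecting duct spots held 415779 UMIs in all, so the Hbb-bs call rested on very few UMIs in them. Among that section's spots with few mitochondrially encoded counts, 0 genes of the list were measured. S100g, a calcium carrier of the connecting tubule, had -1.31 and 0.95. Tmem52b, a membrane protein, had -1.20 and 0.75, but 0.53, within 1.5-fold, relative to the median of all genes in the section labelled Vehicle.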

How the results depend on the processing

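No paired analysis was possible because each treatment has 1 section. The numbers of genes called moved by over 1.5 times under these settings. In the SH045 section, 397 higher and 389 lower genes became 596 and 620 with a 95th percentile score, 1877 and 2087 after thinning to 2500 UMIs (far fewer counts), 125 and 106 at 50 CPM or more, 972 and 927 with no filter and 117 and 66 at 2-fold. Without position block 1, 590 were lower, and the cause was not tested. Deep against outer, 910 and 963 became 199 and 130 at 50 CPM or more and 255 and 303 at 2-fold. In the section labelled Vehicle, 2331 and 941 became 1417 and 1534 relative to the median of all genes, 740 and 282 at 50 CPM or more and 883 and 377 at 2-fold.

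The principal cell list gave 13 higher genes at 50 CPM or more and at 2-fold, and between 18 and 21 under the other alternatives, with 0 lower under each. Of 75 named genes called, 72 kept their direction under all 21 alternatives run, 16 of them fixed at the start. Several alternatives could not change a direction: the CPM filters and the 2-fold limit leave the ratio as it is. A smaller constant added to CPM cannot alter its sign. The genes ranked by their ratio in collecting duct spots were also chosen for the same direction in position blocks and against touching spots. Their agreement in those settings was therefore partly built in. The exceptions were Kcne1 (-1.93) and Oxgr1 (-1.02) after thinning and S100g (0.17) with a score without Aqp2. Of 82 list and named genes called higher, 63 stayed so without the spot holding most of their UMIs.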
